A study of Mus musculus with 6 samples.

Results

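The 10 genes described here belong to the circadian clock: the activators Arntl, Clock and Npas2, the repressors Per1, Per2, Per3, Cry1 and Ciart, and the output factors Dbp and Tef. They were taken by gene symbol from a table of 23390 mouse genes, and all 10 were found, each once. The table holds RNA sequencing of small-intestinal epithelial cells from C57BL/6 mice, sorted as viable cells without the leukocyte marker CD45 and with the epithelial marker EpCAM. In 3 libraries the mice carried floxed Maf alleles without Cre (Maf.flox, here the controls). In the other 3 the same floxed alleles were combined with Cre under the villin promoter (Vil.Cre Maf.flox), which acts in the intestinal epithelium as a whole and not in enterocytes alone. These are called the Cre group or Cre libraries. The labels give no age, sex, feeding state or time of collection, and no group carried Cre without floxed Maf. The labels do not say whether each of the 3 libraries of a group stems from its own mouse. Both sexes occur in each group by Xist and Y-linked counts, so the spread within a group spans more than 1 mouse, but the number of mice is not stated and the p-values cover only how far these libraries differ.

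The clock is a loop of transcription factors that runs in nearly every cell with a period of about a day. Arntl (also called BMAL1) pairs with Clock or its paralog Npas2 and activates genes through E-boxes, among them the Per and Cry genes, whose proteins then block the pair. Nuclear receptors of the Rev-erb family (Nr1d1, Nr1d2) repress Arntl, Npas2, Cry1 and Nfil3, while ROR receptors activate them, so that these genes peak at another time of day than Dbp, the Rev-erb genes and the Per genes. Dbp, Tef and Hlf are bZIP factors that activate genes through D-boxes, and Nfil3 represses through the same element. In the gut this clock is entrained by feeding and accompanies daily rhythms of nutrient transporters, of which the peptide transporter Slc15a1 is a known DBP target.

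The upstream sequence of 5 start sites is shown because it holds letters of the elements named above. RefSeq's promoter table (GRCm38.p6) matched 9 of the 10 members with 14 windows, each from 250 bases before to 50 bases after a start. The letters CACGTG (E-box, the same on both strands) were found in 5 of the 14 windows, those of Per1, Cry1, Tef and Ciart, and in 7.15% of all 32851 windows in the table. The D-box letters TTATGTAA or TTACGTAA, on either strand, were found in 1 window, that of Per3, and in 1.06% of all windows. The cAMP response element TGACGTCA was in none of the 14 and in 1.79% of all. The Maf recognition letters TGCTGAC were in 1 of the 14, at a start of Clock, and in 4.67% of all. The nuclear receptor letters AGGTCA were in 3 of the 14 (1 each at Arntl, Clock and Per1) and in 16.3% of all. No motif overlapped another in these windows. Such matches describe letters only. The 250 bases before each start follow, 5′ to 3′ on the strand of the gene, with matched letters in capitals. These are E-boxes in Ciart, Tef and Cry1, D-boxes in Per3, and in Per1 an E-box followed by AGGTCA read on the other strand.
Ciart, chr3:95882229-95882478, minus strand: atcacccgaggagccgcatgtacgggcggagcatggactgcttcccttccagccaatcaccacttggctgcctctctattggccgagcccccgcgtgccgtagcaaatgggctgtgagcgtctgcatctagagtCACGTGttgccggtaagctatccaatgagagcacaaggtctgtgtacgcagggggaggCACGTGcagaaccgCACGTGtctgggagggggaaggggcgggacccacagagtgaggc
Per3, chr4:151044666-151044915, minus strand: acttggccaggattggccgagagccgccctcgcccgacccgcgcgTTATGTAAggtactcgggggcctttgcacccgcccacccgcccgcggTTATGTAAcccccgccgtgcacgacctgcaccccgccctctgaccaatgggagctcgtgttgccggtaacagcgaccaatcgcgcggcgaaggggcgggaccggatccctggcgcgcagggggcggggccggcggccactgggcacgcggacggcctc
Per1, chr11:69098699-69098948, plus strand: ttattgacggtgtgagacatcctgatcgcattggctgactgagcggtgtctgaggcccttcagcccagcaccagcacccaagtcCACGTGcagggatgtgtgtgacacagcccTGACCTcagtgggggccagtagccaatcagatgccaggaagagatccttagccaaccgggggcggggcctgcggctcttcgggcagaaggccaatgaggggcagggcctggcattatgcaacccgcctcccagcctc
Tef, chr15:81811164-81811413, plus strand: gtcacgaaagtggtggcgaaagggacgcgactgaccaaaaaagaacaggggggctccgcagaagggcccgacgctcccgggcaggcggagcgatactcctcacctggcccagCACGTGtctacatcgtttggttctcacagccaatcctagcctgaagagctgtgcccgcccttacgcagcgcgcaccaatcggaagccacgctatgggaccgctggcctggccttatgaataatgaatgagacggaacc
Cry1, chr10:85185055-85185304, minus strand: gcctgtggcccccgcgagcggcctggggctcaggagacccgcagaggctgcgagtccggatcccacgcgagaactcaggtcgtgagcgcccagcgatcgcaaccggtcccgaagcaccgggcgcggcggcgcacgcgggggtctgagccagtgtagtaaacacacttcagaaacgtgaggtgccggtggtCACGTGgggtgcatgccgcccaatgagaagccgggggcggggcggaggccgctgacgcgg
Ciart held 3 E-boxes, at positions -116, -58 and -44 from its start, a number that 0.0883% of all windows reach. Per3 held 2 D-boxes, at -205 and -158, and 2 or more were found in 0.0244% of all windows. The E-boxes of Per1, Tef and Cry1 began at -166, -138 and -60, and the other Tef window held 1 at -127.

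Libraries had between 17464355 and 24802525 counts, so that 1 CPM (the usual depth-scaled count unit, here with TMM factors) was 17.03 to 23.78 counts. Maf itself had 9398, 5615 and 3893 counts in control replicates 1, 2 and 3, and 16, 1 and 1 in the Cre group. Xist and Y-linked counts gave 1 male (replicate 1) and 2 females in controls, and 2 males and 1 female (replicate 3) in the Cre group. Among the control libraries, control replicate 3 lay farthest from the others (chi-square per gene 119.26 and 56.01, against 34.19 between replicates 1 and 2). Epithelial markers summed to 14710 to 17820 CPM in controls and 14050 to 18170 CPM in the Cre group, with all 9 detected. Leukocyte markers summed to 17.24 to 26.09 and 20.5 to 26.01 CPM, with Lcp1 the most abundant at up to 22.67 CPM. Stromal, endothelial and neural markers summed to at most 0.6767, 0.5872 and 0.5072 CPM in any library, with endothelial Cdh5 at 0.

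Compared with controls, the Per genes and the D-box activators stood lower in the Cre group, while the activators Arntl, Clock and Npas2 and the repressor Cry1 had fitted differences of at most 1.275-fold. Fitted differences ran from 9.131-fold lower for Dbp, through 3.432-fold for Tef, 2.688-fold for Per1, 2.107-fold for Per3 and 1.596-fold for Per2, to 1.275-fold higher for Cry1. None of the 9 members that passed the filter on low counts was called by edgeR's quasi-likelihood test at an adjusted p of 0.05, where 0.546% of all 13740 tested genes were called. At an unadjusted p under 0.05, 5 of the 9 were lower (9.25% of all tested genes) and 0 higher (7.11%). DESeq2 called 1 of the 9, Per1 (5.53% of all tested genes), and limma-voom called 0 (0.218%). Per1 was also the 1 member called at an adjusted p of 0.1 (2.71% of all tested genes). Libraries of the 2 groups did not overlap for Per1 and Tef, both lower, where 10.5% of tested genes were separated in this direction and 20.6% in either. Of the 9 members 7 had a log2 fold change below 0 and their median was -0.67, beside 51.6% and -0.01 over all tested genes. In bulk samples fewer cells of a type and less RNA per cell cannot be told apart.

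**Figure D1:**
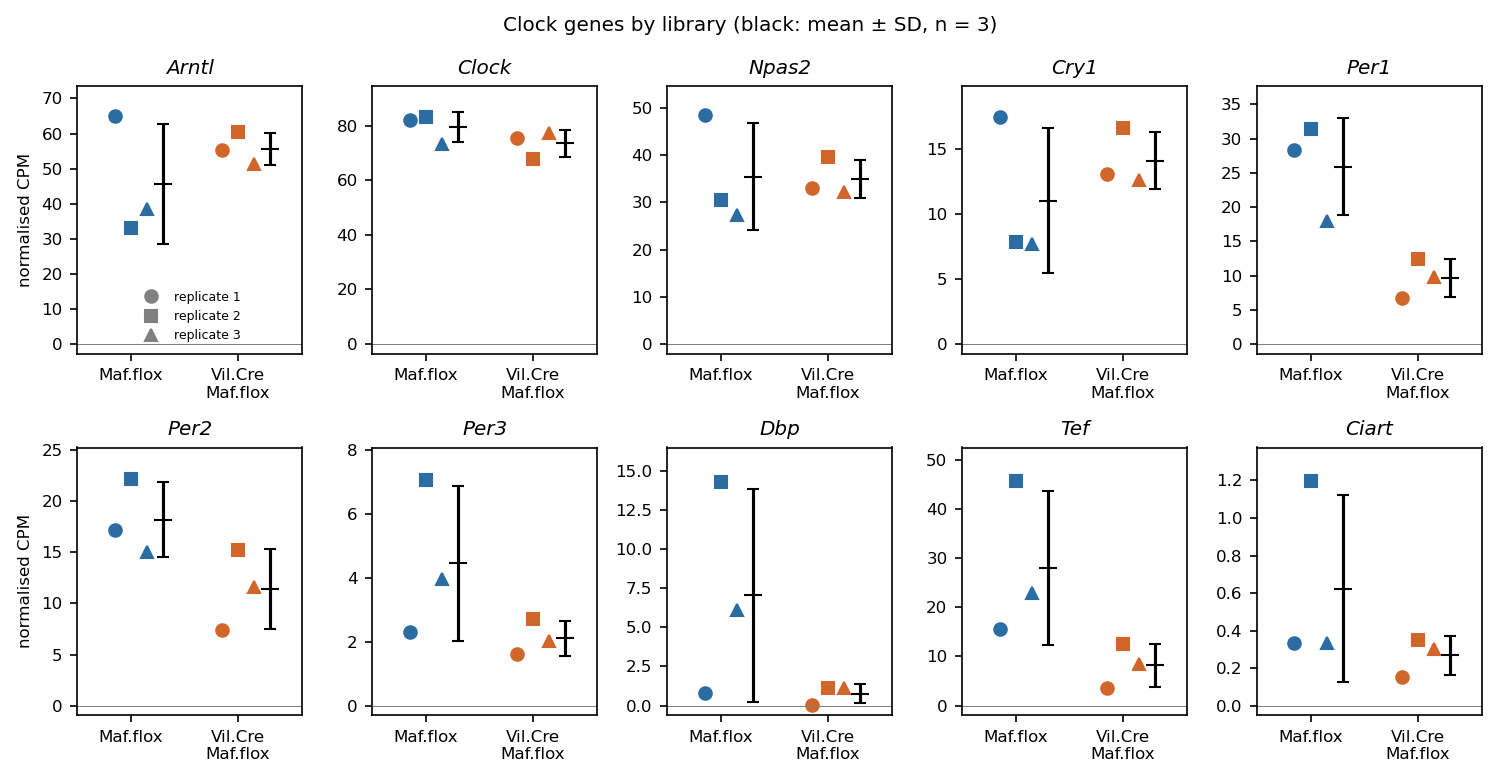
Normalised CPM of the 10 clock genes in each library (symbols mark replicates 1 to 3, blue controls, Maf.flox; orange Cre group, Vil.Cre Maf.flox), with the mean and SD of each group in black. Per1 and Tef separate the groups, whereas the control values of Dbp run from 0.7988 to 14.26 CPM and those of Clock hardly spread.

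The Per genes encode the PERIOD repressors, which enter the nucleus with the CRY proteins. Per1 (ENSMUSG00000020893, GRCm38 chromosome 11, 69095217 to 69109960, plus strand) had 28.3, 31.44 and 17.93 CPM in control replicates 1, 2 and 3 and 6.796, 12.39 and 9.756 CPM in the Cre group. Every Cre library lay below every control, and replicate 3 was the lowest control. Its mean was 25.89 ± 7.07 CPM in controls and 9.65 ± 2.8 CPM in the Cre group (SD, n = 3 each), and its log2 fold change came to -1.43 (SE 0.269, adjusted p = 0.0708, edgeR). Without control replicate 3 it was -1.63 with an adjusted p of 0.00754 by edgeR, in a fit that called 5% of all genes. With no filter on low counts the adjusted p was 0.0468, where 1.58% of all genes were called. Leaving out each of the other libraries gave adjusted p values from 0.0789 to 0.257.

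Per2 (ENSMUSG00000055866, chromosome 1, 91415982 to 91459324, minus strand) had 17.24, 22.23 and 15.08 CPM in controls and 7.405, 15.21 and 11.6 CPM in the Cre group. The groups overlapped by a narrow margin, with Cre replicate 2 just above control replicate 3. The log2 fold change came to -0.67 (SE 0.26, adjusted p = 0.249, edgeR). Per3 (ENSMUSG00000028957, chromosome 4, 151003652 to 151044665, minus strand) had 2.312, 7.08 and 3.984 CPM in controls and 1.623, 2.701 and 2.011 CPM in the Cre group. Here control replicate 1 fell inside the Cre range. The log2 fold change came to -1.07 (SE 0.41, adjusted p = 0.243, edgeR) and -0.57 without control replicate 2. Per3 lies within the span of Camta1 on the same strand, and Camta1 had 3.868 to 5.17 CPM in controls and 3.817 to 4.664 in the Cre group.

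Levels per length, as FPKM in the deposited table, allow the Per genes to be compared with each other. The ratio of Per1 to Per2 was 1.707, 1.471 and 1.236 in control replicates 1, 2 and 3 and 0.9545, 0.8472 and 0.8749 in the Cre group. Per1 was thus the more abundant of the pair in each control library and Per2 in each Cre library. This ratio was chosen after its values were seen and was not tested. Per3 stood below both, at 0.46 ± 0.246 FPKM in controls and 0.22 ± 0.0563 FPKM in the Cre group (SD, n = 3 each).

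Per1 is also an immediate early gene, induced by cAMP signalling and by glucocorticoids, and a list of genes that answer the same stimuli is given beside it. On that list 14 of 15 tested genes lay below 0 in log2 fold change (median -0.66), beside 51.6% of all tested genes. Of the 15, 0 were called (0.546% of all tested genes) and 8 were lower at an unadjusted p under 0.05 (9.25%). Summed levels were 2993 to 3839 CPM in controls and 1622 to 2386 CPM in the Cre group, without overlap. Abundant genes such as Fos, at up to 876.3 CPM, weigh most in this sum. Taken singly, 7 of the 15 genes were separated, all lower, where 10.5% of all tested genes were separated in this direction. Sgk1, a kinase induced by glucocorticoids, had 248.6, 175.8 and 63.98 CPM in controls and 24.19, 32.71 and 31.28 CPM in the Cre group. The fitted log2 difference was -2.47 (SE 0.498, adjusted p = 0.0995, edgeR). The AP-1 genes Junb and Fos and the antiproliferative gene Btg2 had log2 fold changes of -0.66, -0.77 and -0.80 (adjusted p = 0.11, 0.117 and 0.11, edgeR). Fkbp5 and Klf9, also glucocorticoid-induced, had log2 fold changes of -0.13 and -0.09, so the list did not differ evenly. The part of these stimuli in the Per1 difference was not tested.

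Dbp and Tef activate D-box genes and are themselves driven by the clock. Dbp (ENSMUSG00000059824, chromosome 7, 45705088 to 45710203, plus strand) had 0.7988, 14.26 and 6.071 CPM in control replicates 1, 2 and 3, from 19, 274 and 128 counts. In the Cre group it had 0.0507, 1.116 and 1.112 CPM, from 1, 19 and 26 counts. Control replicate 1 lay below 2 of the 3 Cre libraries, so the groups overlapped. The highest control library exceeded the lowest 17.85-fold, and in the Cre group the range was 22-fold, resting on the single count of replicate 1. The log2 fold change came to -3.19 (SE 1.2, adjusted p = 0.272, edgeR). It was -2.15 without control replicate 2 and -2.63 without Cre replicate 1. The last 737 bases of the Dbp span overlap Sphk2, which runs the opposite way. Whether reads were counted by strand is not given in the sources used here. Sphk2 had 105.1 to 112.8 CPM in controls and 88.31 to 113.5 CPM in the Cre group (log2 fold change -0.17, adjusted p = 0.537, edgeR).

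Tef (ENSMUSG00000022389, chromosome 15, 81802421 to 81826863, plus strand) had 15.51, 45.65 and 23 CPM in controls and 3.601, 12.45 and 8.515 CPM in the Cre group. The groups did not overlap, and control replicate 2 was the highest of all. The log2 fold change came to -1.78 (SE 0.562, adjusted p = 0.208, edgeR), and -1.23 without control replicate 2. An antisense gene overlaps 193 bases at its start. Hlf, the third activator of this family and not among the 10 members, had 0.7988, 1.353 and 0.996 CPM against 0.0507, 0.5872 and 0.4707 CPM (log2 fold change -1.49, adjusted p = 0.256, edgeR).

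Nfil3, the repressor at the same element, stood on the other side. It had 26.15, 17.75 and 23.05 CPM in controls and 37.08, 34.7 and 37.87 CPM in the Cre group, with no overlap. It was higher by a log2 fold change of 0.71 (SE 0.145, adjusted p = 0.0736, edgeR), 0.73 without control replicate 3, where the adjusted p was 0.0434. On the FPKM scale Dbp, Tef and Hlf together came to 2.373, 10.64 and 5.063 in controls and 0.4835, 2.04 and 1.534 in the Cre group. Divided by Nfil3 this gave 0.1827, 1.229 and 0.4484 in controls and 0.0264, 0.1193 and 0.0816 in the Cre group. The summed activators exceeded Nfil3 in a single library, control replicate 2. The ratio does not overlap between the groups, although control replicate 1 comes near them, and it was formed after the values were seen.

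**Figure D2:**
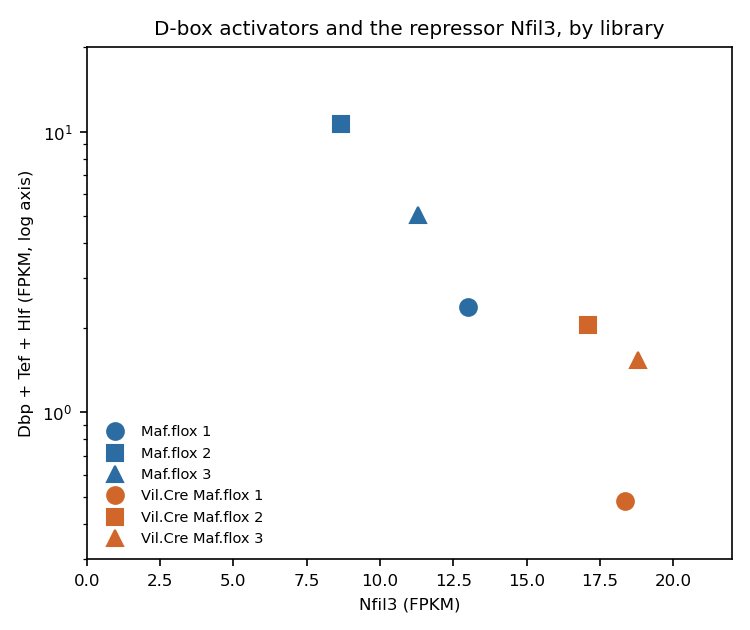
Summed FPKM of Dbp, Tef and Hlf (log axis) against FPKM of Nfil3 (linear axis), 1 point per library. The Cre libraries lie to the right at 17.1 to 18.81 FPKM of Nfil3, and the control libraries spread from 8.652 to 12.99 FPKM of Nfil3 with activators from 10.64 down to 2.373 FPKM.

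Ciart encodes a repressor that binds the Arntl complex. Ciart (ENSMUSG00000038550, chromosome 3, 95878503 to 95882251, minus strand) was the one member that did not pass the filter on low counts, with 8, 23 and 7 counts in controls and 3, 6 and 7 in the Cre group. Its 0.3364, 1.197 and 0.332 CPM in controls and 0.1522, 0.3523 and 0.2995 CPM in the Cre group overlapped, and control replicate 2 alone stood apart. Its difference was thus not tested in the main analysis, and a noncoding gene with 10 to 15 counts per library spans the whole of Ciart on the other strand.

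Arntl, the obligate partner of the activating pair (ENSMUSG00000055116, chromosome 7, 113207465 to 113314126, plus strand), had 65.04, 33 and 38.56 CPM in controls and 55.18, 60.54 and 51.47 CPM in the Cre group. Control replicate 1 was the highest of the 6 libraries and the other controls were the lowest. The log2 fold change came to 0.29 (SE 0.238, adjusted p = 0.611, edgeR), and it was 0.65 without control replicate 1 (adjusted p = 0.0932, edgeR). Npas2 (ENSMUSG00000026077, chromosome 1, 39193731 to 39363236, plus strand) had 48.39, 30.4 and 27.37 CPM in controls and 32.92, 39.46 and 32.13 CPM in the Cre group. The same control library was the highest, and the log2 fold change came to -0.03 (SE 0.212, adjusted p = 0.97, edgeR) with a sign that was not fixed (0.01 with upper quartile scaling). Clock (ENSMUSG00000029238, chromosome 5, 76209868 to 76304792, minus strand) had 82.16, 83.18 and 73.09 CPM against 75.42, 67.76 and 77.15 CPM. It was the steadiest member, with a log2 fold change of -0.11 (SE 0.101, adjusted p = 0.637, edgeR).

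Cry1, a CRYPTOCHROME repressor (ENSMUSG00000020038, chromosome 10, 85131700 to 85185064, minus strand), had 17.45, 7.86 and 7.731 CPM in controls and 13.09, 16.62 and 12.62 CPM in the Cre group. As with Arntl, control replicate 1 was the highest library and control replicates 2 and 3 were the lowest. The log2 fold change came to 0.35 (SE 0.323, adjusted p = 0.654, edgeR) and 0.86 without control replicate 1 (adjusted p = 0.126, edgeR). Its paralog Cry2 had 15.68, 12.96 and 7.067 CPM in controls and 4.666, 10.86 and 5.006 CPM in the Cre group (log2 fold change -0.81, adjusted p = 0.375, edgeR). Per length, Cry1 exceeded Cry2 by 2.105, 1.147 and 2.07 times in controls and by 5.306, 2.895 and 4.771 times in the Cre group, a ratio also formed after the values were seen.

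**Figure D3:**
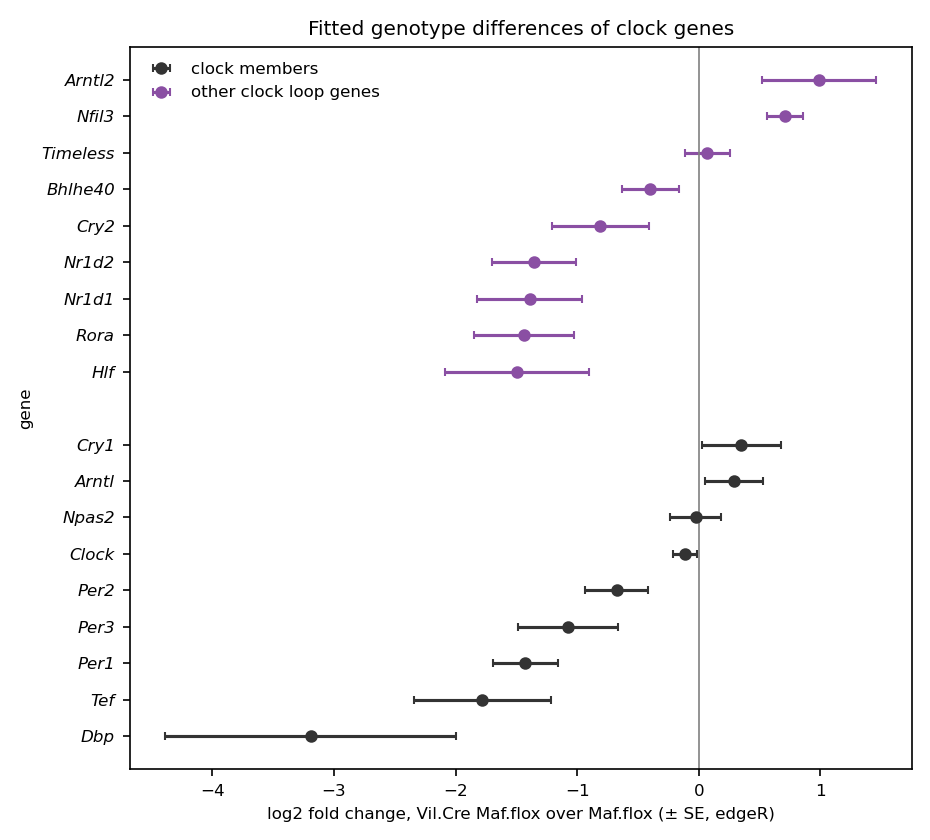
Log2 fold change (Vil.Cre Maf.flox over Maf.flox) with its SE for the 9 tested members in black and 9 of 10 tested other clock loop genes in purple. Dbp, Tef, Per1, Per3, Per2, Nr1d1 and Nr1d2 lie below 0, and Clock, Npas2 and Timeless lie close to it. Nfil3 at 0.71 and Arntl2 at 0.99 (mean of 0.76 CPM over all libraries) lie above it. None was called over all genes.

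By level per length, the order in controls was Npas2 (7.37 ± 2.44 FPKM), Arntl (6.04 ± 2.34), Clock (5.76 ± 0.416), Per1 (4.58 ± 1.25), Tef (3.54 ± 1.95), Cry1 (3.29 ± 1.7), Per2 (3.09 ± 0.606), Dbp (2.33 ± 2.24), Per3 (0.46 ± 0.246) and Ciart (0.27 ± 0.217; FPKM, SD, n = 3). Each step between neighbours in this order was smaller than the larger SD of the pair. In the Cre group the order was Arntl (7.42 ± 0.578 FPKM), Npas2 (7.29 ± 0.814), Clock (5.36 ± 0.384), Cry1 (4.23 ± 0.639), Per2 (1.95 ± 0.664), Per1 (1.72 ± 0.494), Tef (1.04 ± 0.562), Dbp (0.254 ± 0.206), Per3 (0.22 ± 0.0563) and Ciart (0.119 ± 0.0458; FPKM, SD, n = 3). There the pairs Arntl and Npas2, Per2 and Per1, and Dbp and Per3 differed by less than the larger SD of the pair, and every other step exceeded both SDs.

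The members differed in how much they varied among libraries of one genotype. The SD of log2 CPM (prior count 2) among the control libraries was 2.05 for Dbp, larger than that of 99.8% of tested genes. It was 0.79 for Per3 and 0.79 for Tef (96.1% and 96%), 0.67 for Cry1 (94.2%) and 0.51 for Arntl (89.4%), against a median of 0.18 over all tested genes. Clock lay below that median at 0.10. Among the Cre libraries Dbp and Tef again varied widely (1.75 and 0.90, above 99.8% and 98.3% of tested genes), while Arntl at 0.12 and Cry1 at 0.21 lay near the median of 0.19.

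This variation had a pattern. Control replicates 2 and 3 combined low Arntl, Npas2 and Cry1 with high Dbp, Tef, Per3, Nr1d1 and Nr1d2. Control replicate 1 combined the highest Arntl, Npas2 and Cry1 of all libraries with the lowest control levels of Dbp, Tef, Per3, Nr1d1 and Nr1d2. Its Dbp and Per3 lay within the range of the Cre libraries, whereas its Tef, Nr1d1 and Nr1d2 lay above all of them, and it kept high Per1. Cre replicate 1 was likewise the lowest Cre library for Dbp, Tef, Per3, Nr1d1 and Nr1d2, but not the highest for Arntl, Npas2 or Cry1. In both groups replicate 2 was the highest for Dbp, Tef, Per3 and Nr1d1, whereas Nr1d2 was highest in Cre replicate 3. Whether equal replicate numbers share a collection is not in the labels. The mean log2 CPM of Per1, Per2, Per3, Dbp, Tef and Ciart minus that of Arntl, Clock and Npas2 was -3.86, -1.78 and -2.74 in control replicates 1, 2 and 3. It was -5.09, -3.80 and -4.00 in the Cre group, so that control replicate 1 lay between Cre replicates 2 and 3. Group means were -2.79 ± 1.04 and -4.30 ± 0.697 (SD, n = 3 each). The ratio of Arntl to Dbp CPM was 81.42, 2.314 and 6.352 in controls and 1088, 54.26 and 46.27 in the Cre group. The time of day at which each library was collected is not in the labels.

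**Figure D4:**
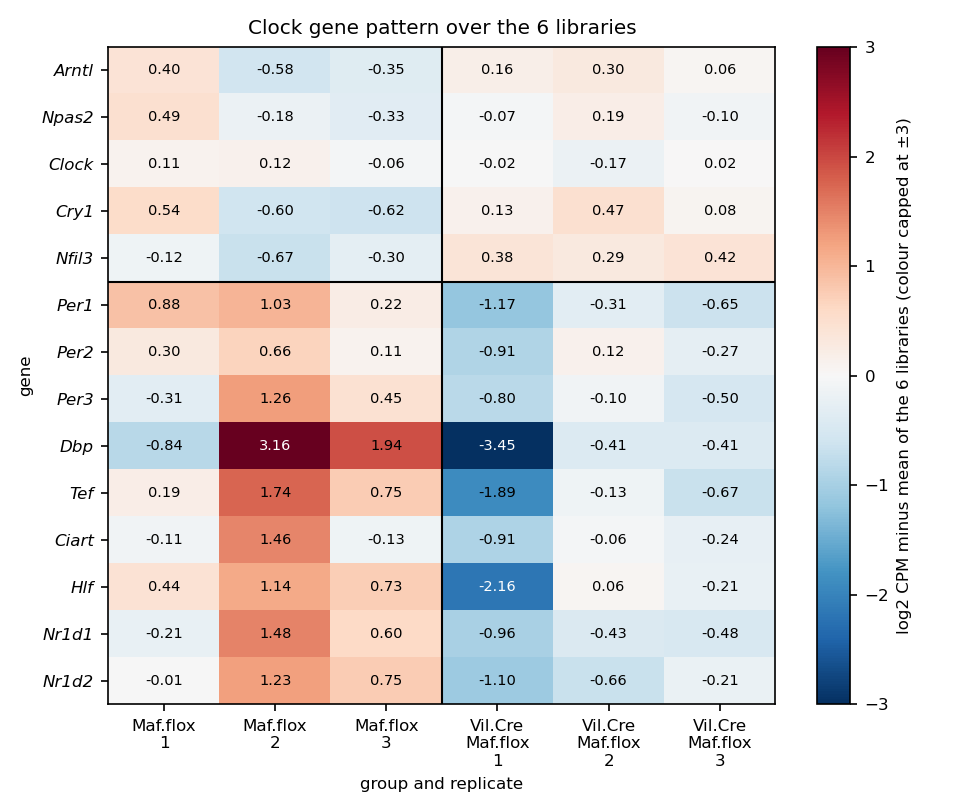
Log2 CPM of clock genes in each library minus the mean over the 6 libraries, written in each cell and coloured from blue (below) to red (above). The genes under the horizontal line are highest in control replicate 2 and lowest in Cre replicate 1, and control replicate 1 is above the mean for Arntl, Npas2 and Cry1 and below it for Dbp, Per3 and Nr1d1.

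Control replicate 1 was also the one male control, and sex was not balanced. Among males (1 library against 2) and among females (2 against 1) the difference in mean log2 CPM was -1.61 and -1.27 for Per1, -0.69 and -0.66 for Per2, -1.20 and -1.92 for Tef and -1.08 and -2.96 for Dbp. It was -0.14 and -1.36 for Per3, -0.48 and -1.52 for Nr1d1, -0.17 and 0.53 for Arntl, -0.42 and 0.15 for Npas2 and -0.24 and 0.69 for Cry1. The means of Per1, Per2, Tef, Dbp, Per3 and Nr1d1 were thus lower in both sexes, whereas those of Arntl, Npas2 and Cry1 turned sign. For Dbp the male control, at 0.7988 CPM, lay between the male Cre libraries, at 0.0507 and 1.116 CPM. The same held for Per3, at 2.312 CPM against 1.623 and 2.701 CPM. With sex as a term the log2 fold change of Per1 was -1.45 (adjusted p = 0.119, edgeR) and that of Dbp -2.13 (adjusted p = 0.407, edgeR). In each sex 1 genotype rests on a lone library, so sex and a deviation of that library cannot be told apart.

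Marker levels of other epithelial cells differed between libraries. The 4 tuft cell markers summed to 26.49, 53.98 and 13.61 CPM in controls and to 11.63 to 12.92 CPM in the Cre group. Their sum was highest in control replicate 2, as were Dbp and the enteroendocrine sum. Among controls it was lowest in replicate 3, whereas Dbp was lowest in replicate 1. The 5 absorptive enterocyte markers summed to 4255 to 12730 CPM and 2099 to 4114 CPM. Paneth markers summed to 4126 to 24380 and 5818 to 8211 CPM, crypt and cycling markers to 1899 to 2754 and 1750 to 2474 CPM, goblet markers to 11610 to 26910 and 11910 to 22340 CPM, and enteroendocrine markers to 192 to 582 and 171.7 to 320.3 CPM. Their part in the clock gene differences was not tested.

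Of 12 other genes of the clock loop 10 were in the table and tested. None was called (0.546% of all tested genes were), 4 were lower and 1 higher at an unadjusted p under 0.05 (9.25% and 7.11%), and the median log2 fold change was -0.60. Libraries did not overlap for 4 that were lower and 2 that were higher (10.5% and 10.1% of tested genes). Low counts underlie some of these. Rora had 14, 17 and 24 counts in controls and 7, 5 and 7 in the Cre group. It thus passed the filter only through the group where it was higher. Hlf had 19, 26 and 21 against 1, 10 and 11 counts, and Arntl2, which was higher, 5, 10 and 17 against 21, 20 and 19. Rora and Hlf are also among the 4 lower at an unadjusted p under 0.05. Nr1d1, which encodes the heme-binding repressor Rev-erb alpha, had 41.96, 136.4 and 73.71 CPM in controls and 24.95, 36.17 and 34.87 CPM in the Cre group. This is a log2 fold change of -1.39 (SE 0.431, adjusted p = 0.203, edgeR). Nr1d2, its paralog, had 19.93, 47.47 and 34.01 CPM against 9.332, 12.68 and 17.41 CPM, with a log2 fold change of -1.36 (SE 0.347, adjusted p = 0.132, edgeR). Both were lower in every Cre library, and both were highest in control replicate 2. Rora, at 0.5886 to 1.138 CPM in controls and 0.2936 to 0.355 CPM in the Cre group, had a log2 fold change of -1.44 (adjusted p = 0.146, edgeR). Bhlhe40, a repressor at E-boxes, stood at -0.40 (adjusted p = 0.447, edgeR). It had 81.65, 80.74 and 45.63 CPM in controls and 50.52, 62.42 and 45.06 CPM in the Cre group. Without control replicate 3 it was called lower by edgeR, in the fit that called 5% of all genes.

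Kinases, ubiquitin ligases and deacetylases that act on clock proteins had log2 fold changes near 0, with a median of -0.07 over 15 tested genes and 0 called (0.546% of all tested genes). At an unadjusted p under 0.05, 2 were lower and 1 was higher (9.25% and 7.11% of all tested genes). Sirt1, a deacetylase of clock proteins, had 29.39, 30.87 and 27.41 CPM in controls and 20.03, 22.14 and 21.69 CPM in the Cre group, a log2 fold change of -0.46 (SE 0.105, adjusted p = 0.0909, edgeR). Fbxl21, which marks CRY proteins with ubiquitin, had a log2 fold change of -0.79, and Nampt, which makes the cofactor of Sirt1, one of 0.27 (adjusted p = 0.315 and 0.28, edgeR). Among 4 further clock-controlled genes all had values below 0 (51.6% of all tested genes), 0 were called (0.546%) and 2 were lower at an unadjusted p under 0.05 (9.25%). They were led by Tsc22d3, a glucocorticoid-induced leucine zipper gene, at -0.86 (adjusted p = 0.0875, edgeR), and followed by Por, Pim3 and Wee1 at -0.33, -0.37 and -0.32.

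Among 11 nutrient genes known to be rhythmic in rodent intestine, 10 had a log2 fold change below 0 (median -1.08; 51.6% of all tested genes lay below 0). The 5 absorptive enterocyte markers were lower beside them, all below 0 (median -1.30). All 5 were lower at an unadjusted p under 0.05 (9.25% of all tested genes) and 0 were called (0.546%). Their sums did not overlap (4255 to 12730 against 2099 to 4114 CPM). Taken singly, 3 of the 5 were separated, all lower (10.5% of all tested genes). Apoa4 is on both lists, and the part of these markers in the nutrient gene differences was not tested. Of the 11 nutrient genes, 3 were called lower (0.357% of all tested genes) and 1 higher (0.189%). The peptide transporter Slc15a1, the DBP target named above, had 357, 550.1 and 225.9 CPM in controls and 66.54, 76.16 and 50.66 CPM in the Cre group (log2 fold change -2.55, adjusted p = 0.0365, edgeR). In control replicate 1 Dbp, at 0.7988 CPM, lay below Cre replicates 2 and 3, at 1.116 and 1.112 CPM, whereas Slc15a1 lay above them. The part of Dbp in the Slc15a1 difference was not tested. Lactase (Lct) and the glucose transporter Slc2a2 fell with log2 fold changes of -4.86 and -2.93 (adjusted p = 0.00298 and 0.0457, edgeR). The sodium-proton exchanger Slc9a3, whose gene the clock is known to drive, rose from 62.52, 68.77 and 76.79 CPM to 152.1, 126.8 and 153.7 CPM (log2 fold change 1.06, adjusted p = 0.0143, edgeR). Slc15a1 and Slc2a2 lost their call in edgeR fits with no filter, with a sex term and without control replicate 1 or any 1 Cre library (adjusted p = 0.083 to 0.184 and 0.0994 to 0.235), and Slc2a2 also with limma-voom (adjusted p = 0.108). Slc9a3 lost its call without control replicate 2 or Cre replicate 1 or 3 (adjusted p = 0.0563 to 0.0793).

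The genes most like Dbp and Arntl over the 6 libraries were taken by the smallest root mean square difference of centred log2 CPM, among 12487 other genes with a mean of at least 1 CPM. For Dbp these were Klf15 (1.01), Mylk3 (1.15), Fgf15 (1.16), Tchh (1.17) and Gm14296 (1.19, in log2 units). Klf15 encodes a Krüppel-like transcription factor and had 2.312, 5.778 and 4.506 CPM in controls and 0.2536, 0.7047 and 1.925 CPM in the Cre group. Fgf15, the ileal hormone that restrains bile acid synthesis, had 25.61, 123.4 and 58.96 CPM in controls and 12.12, 14.27 and 38.04 CPM in the Cre group. Neither was called (adjusted p = 0.176 and 0.365, edgeR). The member Tef differed from Dbp by 1.08, nearer than all of these but Klf15, and Nr1d1 and Nr1d2 by 1.37 and 1.38. For Arntl the nearest were Ssc4d (0.08), Ndufa12 (0.10), Mief2 (0.11), Gm17055 (0.11) and Gm20939 (0.12), and the member Cry1 stood at 0.14, in place 11. The measure scales with how much a gene varies, and it describes these 6 libraries only.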

How the data were processed

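RNA from sorted small-intestinal epithelial cells was sequenced in 6 libraries, 3 per genotype. mRNA was taken from total RNA with poly-T beads and copied from random hexamers, per the labels' protocols, which do not give the use of strand. GRCm38 (mm10), DESeq2, featureCounts 1.5.0-p3 and HISAT2 2.0.5 are named in the submitters' processing notes. The deposited counts are whole numbers per gene, without scaling. FPKM in the authors' table equals counts divided by gene length and by 1 library size, 0.953 to 1.074 times the summed counts. It served only to compare levels between genes and was not tested.

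Counts were tested with edgeR 4.0.16 (R 4.3.3): filterByExpr with a least count of 10, TMM scaling, robust quasi-likelihood F tests, genotype as the only term, Benjamini-Hochberg adjustment over 13740 genes. Gene spans match GENCODE M21 for all 10 members. Alternatives were other scalings and filters, DESeq2 1.42.0, limma-voom (limma 3.58.1), a block for the replicate number and leaving out single libraries; the sex term and edgeR without robust estimation were chosen after seeing the data. The fits were tested on simulated counts. Genes named beside the members are the 4 with the smallest p of each list, clock loop genes chosen by role, and the 5 genes most like Dbp and Arntl; some others were named after their values were seen, and some genes of the lists are counted but not reported here by name. Members and lists were chosen with earlier results of these data known. Replicates of a group differed by more than sampling noise, with chi-square per gene from 32.86 to 119.26, so none was a copy of another.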

Additional observations from a re-analysis of the deposited data

How the results depend on the processing

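The directions of Dbp, Tef, Per1, Per2 and Per3 held in every fit that tested them. Npas2 turned positive with upper quartile scaling (0.0073), limma-voom (0.0025) and the replicate block (0.0147), and ran from -0.18 to 0.28 with 1 library left out. Over all genes, 75 calls became 365 with no filter, 760 with DESeq2, 30 with limma-voom, 440 with the replicate block, 38 with the sex term, 372 at FDR 0.1 and 2 at FDR 0.01, and 8 to 701 with 1 library left out. The number of members called, 0 in the main analysis, was 1 (Per1) with no filter, DESeq2, FDR 0.1 and without Maf.flox replicate 3 (0 to 1 over libraries left out), and 3 (Per1, Dbp and Tef) with the replicate block (3.2% of all genes called), where their adjusted p by edgeR was 0.0219, 0.00291 and 0.000898. The labels do not say that equal replicate numbers mark a shared animal, so the block served only as an alternative. Over all tested genes, deviations from group means correlated at 0.0917, -0.0256 and 0.2688 between libraries of equal number. Some libraries correlated more with another number. Taken over all genes, these values cannot decide whether the clock genes share an effect of the replicate number. Calls among other clock loop genes, 0 before, were 1 with no filter and at FDR 0.1, 2 with DESeq2 and the replicate block and 0 to 2 with 1 library left out, and their median ran from -0.90 to -0.40. Clock protein modifiers had 1 call with DESeq2 and at FDR 0.1 and 0 to 1 with 1 library left out. Other clock-controlled genes had 1 with no filter, DESeq2 and FDR 0.1 and 0 to 1 with 1 library left out. Immediate early and glucocorticoid-induced genes had 2 with no filter, 6 with DESeq2, 5 with the replicate block, 1 at FDR 0.1 and 0 to 3 with 1 library left out. Of the nutrient genes, 4 calls became 7 with DESeq2 and the replicate block, 2 with the sex term, 1 at FDR 0.01 and 1 to 7 with 1 library left out. The difference between output and activator genes in Vil.Cre Maf.flox replicate 1 was -3.99 on log2(FPKM + 0.1), against -5.09 on log2 CPM. Every other library also stood higher on that scale, as Maf.flox replicate 1 at -3.03 against -3.86. Gene length enters that scale, and its pseudocount weighs more on low genes. The cause of the changes named in this section was not tested. Dbp, at 1 to 274 counts, and Ciart, at 3 to 23, are limited by depth.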
